A study of Mus musculus with 15 samples.

Results

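The genes described here are the enzymes that cut and crosslink the extracellular matrix, together with the inhibitors of the cutting enzymes, in murine cardiac and hepatic grafts. They were chosen by name and not by their values, although earlier results of these data were known. The rule took every array gene whose symbol is Mmp followed by a number, Timp1 to Timp4, Lox or Loxl, or begins with Adamts. Of 32301 genes on the array, 49 fitted this rule and carried 70 probes, with 21 matrix metalloproteinases, 17 ADAMTS proteases, 3 ADAMTS-like proteins, 4 tissue inhibitors and 4 lysyl oxidase-like enzymes. A further 7 genes of these families, Lox, Mmp1b, Mmp27, Adamts6, Adamts17, Adamtsl3 and Adamtsl5, had no matched probe and were not analysed here. Where a gene had several probes, the one with the highest mean signal over all arrays was used.

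The 15 single-colour arrays fell into 5 groups of 3. Cardiac allografts were hearts of male C57BL/10 mice (B10, H-2b) placed in the abdomen of CBA recipients (H-2k) with their vessels joined, and were taken at post-operative day (POD) 5. Hepatic allografts were orthotopic livers of B10.BR donors (BR, H-2k) in B10.D2 recipients (D2, H-2d), taken at POD5 or POD8. The remaining groups were cardiac and hepatic controls, which the labels and the methods of the study call normal tissue and its results call isografts, so that whether a control had been through surgery could not be settled. Neither the strain of the controls nor the age of any animal is given in the sources used here. A graft also contains whatever recipient cells had entered it. The labels number the arrays of a group without naming animals. P-values from Limma, the test used below, thus measure the spread between these samples, which may be technical.

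Matrix metalloproteinases (MMPs) are zinc enzymes, most of them secreted as inactive precursors, that cut collagens, gelatin, elastin, proteoglycans and many non-matrix proteins. Tissue inhibitors of metalloproteinases (TIMPs) bind the active site of these enzymes one to one, and Timp3, which stays bound to the matrix, also holds ADAMTS and ADAM proteases. ADAMTS proteases trim procollagens or cut the large proteoglycans aggrecan and versican, and lysyl oxidases start the crosslinks that make collagen and elastin fibres stiff. In heart and liver grafts these families are studied because inflammatory cells bring some of the proteases while resident fibroblasts, stellate cells and endothelium make most of the inhibitors and the matrix.

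Several MMP genes lie side by side on chromosome 9, and they differed from each other in the grafts, so the DNA just before their start sites is shown first. The promoter windows of RefSeq (assembly GRCm38.p6), from 250 bases before each start, were searched for TGANTCA, the core to which AP-1 factors (Fos and Jun proteins) bind, and for TTCNNNGAA, the core bound by STAT factors. Each pattern reads the same on the other strand, so that a match on either strand was counted, and among these genes no match of one overlapped a match of the other. An entry was found for 32 of the 49 genes. The AP-1 core stood in 7 of these, against 6.75% of 32851 promoters of the same length. A gene was counted if any of its starts held a core, whereas the shares over all promoters count each start by itself. All 7 were among the 8 genes of the chromosome 9 cluster on the array, namely Mmp1a, Mmp3, Mmp7, Mmp10, Mmp12, Mmp13 and Mmp20, and none of the other 24 genes with an entry held it. The STAT core stood in 1 gene, Mmp23, against 7.02% of promoters. The last 100 bases before the start are printed for the cluster genes whose signals are described or drawn below. Among them is Mmp8, the cluster gene without the core, as a contrast. Capitals mark the AP-1 core, and all 6 windows are on the plus strand.
Mmp13, chr9:7272414-7272513: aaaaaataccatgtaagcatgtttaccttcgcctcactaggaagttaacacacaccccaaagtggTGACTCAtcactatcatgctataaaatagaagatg
Mmp3, chr9:7445722-7445821: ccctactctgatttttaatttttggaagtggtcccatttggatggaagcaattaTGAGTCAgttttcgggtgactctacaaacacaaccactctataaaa
Mmp10, chr9:7502242-7502341: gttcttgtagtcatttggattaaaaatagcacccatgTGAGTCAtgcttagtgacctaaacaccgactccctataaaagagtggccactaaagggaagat
Mmp7, chr9:7691990-7692089: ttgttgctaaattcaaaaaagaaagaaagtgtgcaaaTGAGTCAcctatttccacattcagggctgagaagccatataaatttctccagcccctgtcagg
Mmp12, chr9:7347274-7347373: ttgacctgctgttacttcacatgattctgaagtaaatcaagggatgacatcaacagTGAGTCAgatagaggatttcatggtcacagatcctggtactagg
Mmp8, chr9:7558329-7558428: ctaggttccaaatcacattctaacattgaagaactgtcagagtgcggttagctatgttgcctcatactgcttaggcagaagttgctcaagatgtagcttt

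Counted from the start site, the core lay at bases -35 to -29 in Mmp13, -46 to -40 in Mmp3 and -63 to -57 in both Mmp10 and Mmp7. Mmp7 and Mmp12 each have 2 RefSeq starts, of which 1 holds the core, and the start shown for Mmp12 is the downstream one, with the core at -44 to -38. These are matches of letters, and binding of any factor was not measured.

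Signals are given on a log2 scale, on which a difference of 1 is a 2-fold difference, after quantile normalization within the organ. A gene is said to have risen or fallen where Limma over all probes gave an adjusted P-value (Benjamini-Hochberg) under 0.05. The scanner software marked 21 of the 49 genes as well above background on all 15 arrays, 22 on some and 6 on none, these being Mmp1a, Mmp20, Mmp21, Mmp28, Adamts3 and Adamts13. Genes well above background on all 3 arrays of a group numbered 42 in the cardiac controls, 32 in the cardiac allografts, 29 and 30 in the hepatic allografts at POD5 and POD8, and 21 in the hepatic controls. Before normalization the 75th percentile of the signal was 394 to 710 on cardiac allograft arrays against 1021 to 1247 on cardiac controls, and 338 to 478 on hepatic allograft arrays against 92.1 to 226 on hepatic controls. Scaling the arrays to that percentile in place of quantile normalization moved the median difference of all genes from 0.03 to 0.57 in the heart. In the liver it went from -0.07 to -0.43 at POD5, and at POD8 from -0.10 to -0.53. The cardiac allografts shared 1 slide and the cardiac controls another, so an effect of the slide and one of the graft cannot be told apart in the heart. The hepatic POD5 allografts shared no slide with the hepatic controls or with the POD8 allografts. Slide and group therefore cannot be told apart in those 2 comparisons either. Tissue markers matched the labels, with all 9 cardiomyocyte genes above background on at least 1 array of each cardiac group and all 6 measured hepatocyte genes on at least 1 array of each hepatic group. In each cardiac group 3 of the 6 hepatocyte genes were above background on no array.

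In the cardiac allografts at POD5, more of these genes fell than rose, with ADAMTS proteases the family that gave the highest number of falls. Of the 49 genes, 3 rose and 20 fell (46.9% in all, 6.12% higher and 40.8% lower), against 30.3% of all genes called (15.2% higher and 15.1% lower). The median difference of the 49 was -0.60, against 0.03 over all genes. The 3 allografts lay beyond the 3 controls for 29 of the 49, 6 above and 23 below, against 54.1% of all genes (29.9% above and 24.2% below). By family, 2 ADAMTS proteases rose and 10 of 17 fell, 2 of 3 ADAMTS-like genes fell, 1 MMP rose and 5 of 21 fell, 2 of 4 TIMPs fell and 1 of 4 lysyl oxidase-like genes fell. Of the 23, 22 were well above background on all arrays of at least 1 group. Under the 75th percentile scaling 9 rose and 20 fell (59.2%, against 53.5% of all genes), and of the 23 only Adamts3 changed direction. The share of all genes called depended on dim probes, here those not above background on every array of either group. With these removed before testing, 42 of the 49 genes remained. Of the 42, 3 rose and 20 fell, with Mmp8 in and Adamts3 out, against 46.6% of all remaining genes called in either direction. All 42 passed this filter in the controls, and 32 in the allografts. It thus kept genes that were bright in the controls alone, and falls among those are partly set by the filter. In whole tissue, fewer cells of a type and less RNA per cell cannot be told apart, here and in the comparisons that follow.

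**Figure D1:**
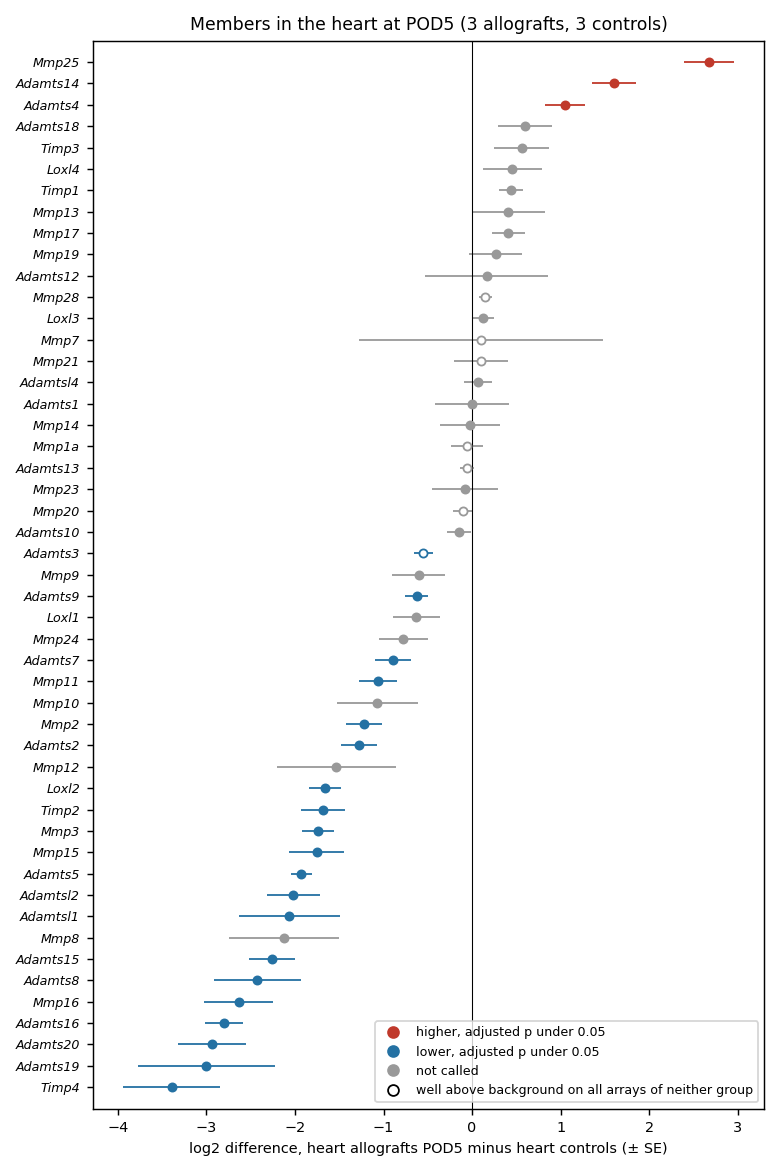
Difference of each of the 49 genes between 3 cardiac allografts at POD5 and 3 cardiac controls (log2, bars ± SE from Limma), sorted by size, with open symbols for genes well above background on all arrays of neither group. Only Mmp25, Adamts14 and Adamts4 are coloured as higher, while 20 genes from Adamts3 to Timp4 are coloured as lower.

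Of the 4 tissue inhibitors, 2 fell and 0 rose in the heart. Timp4, the inhibitor with its main site of expression in heart muscle, had log2 signals of 5.71, 6.70 and 5.74 in the allografts and 8.41, 10.18 and 9.74 in the controls. All allografts were lower, and the difference of -3.39 ± 0.55 (SE, n = 3 and 3, Limma adjusted P = 0.0095) was a 10.5-fold fall, the largest among the 49 genes. Timp2, a broadly expressed inhibitor that also takes part in activating the Mmp2 precursor on the cell surface, was at 13.16, 12.77 and 13.01 in the allografts and at 15.12, 14.24 and 14.64 in the controls. The groups did not overlap, and Timp2 was 3.21-fold lower (-1.68 ± 0.25, Limma adjusted P = 0.0078).

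Neither of the other TIMPs passed the test in the heart. Timp1, the inhibitor that inflammatory cytokines induce, was at 16.67, 16.99 and 16.81 in the allografts and 16.40, 16.21 and 16.54 in the controls. Every allograft was above every control, but the difference of 0.44 ± 0.14 had a Limma adjusted P of 0.062 (0.036 with normexp background correction on median signals). Timp3 was at 14.40, 13.39 and 14.39 against 13.45, 13.39 and 13.66, with a difference of 0.56 ± 0.31 (Limma adjusted P = 0.22). The second allograft lay at the level of the lowest control, and without it the difference was 0.87 (Limma adjusted P = 0.0065). Leaving out that array raised the share of all genes called from 30.3% to 39.7%. Its 75th percentile before normalization was 394, against 706 and 710 on the other allografts. The median difference of the 4 TIMPs was -0.62.

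Among the cardiac MMPs, Mmp25 alone rose. This membrane-anchored enzyme, also called leukolysin, is known from neutrophils. It was at 7.88, 8.87 and 8.07 in the allografts and at 5.69, 5.47 and 5.64 in the controls, so that the lowest allograft stood more than 2 log2 units above the highest control. The difference of 2.67 ± 0.28 (6.38-fold, Limma adjusted P = 0.0030) was the largest increase among the 49 genes. The summed signal of 9 neutrophil genes was at the same time lower in the allografts (13253 to 52588) than in the controls (52990 to 83698), with 0 of the 9 higher and 2 lower, and its part in this result was not tested.

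The MMPs that fell included enzymes of resident stromal cells. Mmp3, stromelysin-1, a broad matrix protease that also activates other MMPs, was at 10.94, 11.19 and 11.40 in the allografts and at 12.78, 12.78 and 13.19 in the controls. The groups were well apart, with a 3.34-fold fall (-1.74 ± 0.18, Limma adjusted P = 0.0029). Mmp2, the gelatinase that fibroblasts secrete, was at 11.06, 11.23 and 10.89 against 12.67, 12.10 and 12.08, a 2.33-fold fall without overlap (-1.22 ± 0.20, Limma adjusted P = 0.011). Mmp16, a membrane-type MMP able to activate the Mmp2 precursor, was at 4.42, 5.09 and 3.72 against 7.34, 6.65 and 7.14. It fell by 2.64 on the log2 scale (± 0.39, Limma adjusted P = 0.0077), but only 1 of the 3 allografts was well above background, and its second probe, above background on 1 of 6 arrays, differed by 0.84 in the other direction without passing the test.

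The other MMPs of the naming rule did not pass the test in the heart. Mmp8, the neutrophil collagenase, was at 6.52, 8.19 and 6.86 in the allografts and 8.85, 8.79 and 10.29 in the controls, with no overlap and a difference of -2.12 ± 0.62 (Limma adjusted P = 0.053). It passed under the 75th percentile scaling (-2.04, Limma adjusted P = 0.018) and with normexp (-1.75, Limma adjusted P = 0.036). Mmp9, the gelatinase of neutrophils and macrophages, was at 7.01, 8.14 and 7.69 against 8.24, 8.28 and 8.13 (-0.60, Limma adjusted P = 0.18). The second allograft lay beside the lowest control and the others below all controls. Without the second allograft both genes passed the test, Mmp8 with a difference of -2.62 (Limma adjusted P = 0.023) and Mmp9 with -0.87 (Limma adjusted P = 0.043). In that setting 39.7% of all genes passed, against 30.3% on all arrays. The other probe of Mmp9 passed on all arrays (-0.86, Limma adjusted P = 0.034). Mmp12, the macrophage elastase, was at 5.96, 6.81 and 5.96 against 8.08, 6.42 and 8.82, with overlapping groups (-1.53 ± 0.67, Limma adjusted P = 0.14). Without the second control, the one within the allografts, the difference was -2.18 (Limma adjusted P = 0.029).

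Mmp13, the main interstitial collagenase of rodents, was at 7.16, 7.81 and 6.47 against 6.84, 7.14 and 6.23 in the cardiac controls, and the groups overlapped (0.41, Limma adjusted P = 0.50). Mmp14, the membrane-type enzyme that activates the Mmp2 precursor together with Timp2, was at 13.38, 12.49 and 13.38 against 13.51, 12.70 and 13.12 (-0.02). Its allografts and controls covered the same range. Mmp7, matrilysin, an epithelial enzyme, was well above background on 1 array of each cardiac group and ran from 2.54 to 7.47 in the controls alone. Its difference of 0.10 became 1.64 (Limma adjusted P = 0.038) without the third control.

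Of the cardiac MMPs that fell, Mmp15 and Mmp11 lay outside the naming rule and were picked after their values were seen. Mmp15, another membrane-type MMP, fell by 1.76 on the log2 scale (± 0.31, Limma adjusted P = 0.013), from controls at 8.60 to 8.95 to allografts at 6.48 to 7.63. Mmp11, stromelysin-3, fell by 1.06 (± 0.22, Limma adjusted P = 0.019), from 8.88 to 9.20 down to 7.55 to 8.29, and neither gene overlapped.

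The ADAMTS proteases gave the largest share of the cardiac changes, and members of 1 functional group moved in opposite directions. Among those that cut aggrecan and versican, Adamts4 was at 8.72, 7.99 and 8.69 in the allografts and 7.52, 7.37 and 7.38 in the controls. It rose 2.06-fold (1.05 ± 0.22, Limma adjusted P = 0.021), although the call was lost when any of 5 of the 6 arrays was left out, with an adjusted P of at most 0.077. Adamts15 was at 8.67, 8.86 and 8.41 in the allografts and 11.24, 10.41 and 11.07 in the controls. It was 4.78-fold lower without overlap (-2.26 ± 0.26, Limma adjusted P = 0.0037).

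Adamts8, which lies beside Adamts15 on chromosome 9, was at 7.28, 7.14 and 7.33 in the allografts and 9.77, 8.68 and 10.58 in the controls. The allografts were close together and all below the spread-out controls, with a 5.37-fold fall (-2.43 ± 0.49, Limma adjusted P = 0.018). Adamts20 was at 2.78, 2.57 and 2.22 in the allografts, none of them well above background, and at 5.28, 4.88 and 6.22 in the controls. That is at least a 2.22-fold fall (Limma adjusted P = 0.0052), where the bound sets the controls against the lowest signals that count as above background. A second probe of Adamts20 also fell (-0.75, Limma adjusted P = 0.021), and its remaining probe, dim on every cardiac array, differed by 0.77 the other way (Limma adjusted P = 0.052).

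Outside the naming rule, and picked after the values were seen, are the further aggrecanases. Adamts5, which with Adamts4 is the best known aggrecanase, was at 8.61, 8.46 and 8.64 in the allografts and 10.51, 10.33 and 10.65 in the controls. It fell 3.80-fold (-1.93 ± 0.12, Limma adjusted P = 0.0010) while Adamts4 rose. Adamts1, the neighbour of Adamts5 on chromosome 16 and a versican-cutting enzyme, was at 12.73, 11.20 and 12.31 against 11.87, 12.35 and 12.03, and its groups overlapped with means nearly equal (difference 0.00 ± 0.42). Adamts9 was at 10.00, 9.79 and 10.02 against 10.38, 10.61 and 10.70, a fall of 0.62 on the log2 scale (± 0.13, Limma adjusted P = 0.020), and its second probe, above background on 2 of 6 arrays, differed by 1.61 the other way (Limma adjusted P = 0.14).

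The procollagen N-proteinases, which trim the amino end of fibrillar procollagens, also split. Adamts14 was at 7.77, 8.58 and 7.76 in the allografts and 6.38, 6.50 and 6.43 in the controls, with no overlap and a 3.04-fold rise (1.60 ± 0.25, Limma adjusted P = 0.0088). Adamts2, outside the naming rule and picked after its values were seen, was at 12.44, 12.45 and 12.08 against 13.92, 13.29 and 13.61, a 2.43-fold fall without overlap (-1.28 ± 0.20, Limma adjusted P = 0.0094). Adamts3, the remaining enzyme of this group and likewise outside the rule, was called lower (-0.55, Limma adjusted P = 0.015), but no cardiac array was well above background, and under the 75th percentile scaling its difference was 0.61 in the other direction.

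Less well known ADAMTS members fell as well. Adamts16 was at 2.18, 1.72 and 1.68 in the allografts, with no array above background, and at 4.75, 4.34 and 4.89 in the controls, at least a 1.27-fold fall (Limma adjusted P = 0.0015). Its other probe, above background on no cardiac array, differed by 0.94 the other way (Limma adjusted P = 0.31). Adamts19 was at 4.11, 1.75 and 3.39, with 1 array above background, against 6.61, 4.99 and 6.65 (-3.0 ± 0.78, Limma adjusted P = 0.038). Adamtsl1, an ADAMTS-like protein without a protease domain, was at 4.29, 2.36 and 4.29 against 5.73, 5.74 and 5.65 (-2.06 ± 0.57, Limma adjusted P = 0.045). The call of Adamtsl1 was lost without any of 5 of the 6 arrays. In each case all allografts were below all controls. Adamtsl2, which binds fibrillin and latent TGF-β, fell by 2.02 (± 0.30, Limma adjusted P = 0.0077), from 9.43, 9.42 and 9.18 in the controls to 7.67, 7.63 and 6.67. Adamts7, outside the naming rule, fell by 0.90 (Limma adjusted P = 0.025).

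Of the lysyl oxidase-like enzymes, Loxl2 fell and the rest did not pass the test in the heart. Loxl2, which crosslinks basement membrane collagen IV and fibrillar collagen, was at 11.47, 11.62 and 11.76 in the allografts and 13.49, 12.94 and 13.41 in the controls. The groups were more than 1 log2 unit apart, a 3.17-fold fall (-1.67 ± 0.18, Limma adjusted P = 0.0032). Loxl1, needed for elastic fibres, was at 11.81, 12.43 and 11.55 against 12.78, 12.35 and 12.54 (-0.63 ± 0.26, Limma adjusted P = 0.13). Only the second allograft reached the range of the controls, and without it the difference was -0.86 (Limma adjusted P = 0.019), where 39.7% of all genes passed. Loxl3 was at 8.61, 8.97 and 8.64 against 8.66, 8.61 and 8.59 (0.13, Limma adjusted P = 0.49), and Loxl4, with 2 allografts above background, at 5.15, 4.27 and 5.02 against 4.80, 3.92 and 4.37 (0.45, Limma adjusted P = 0.36). Both overlapped.

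**Figure D2:**
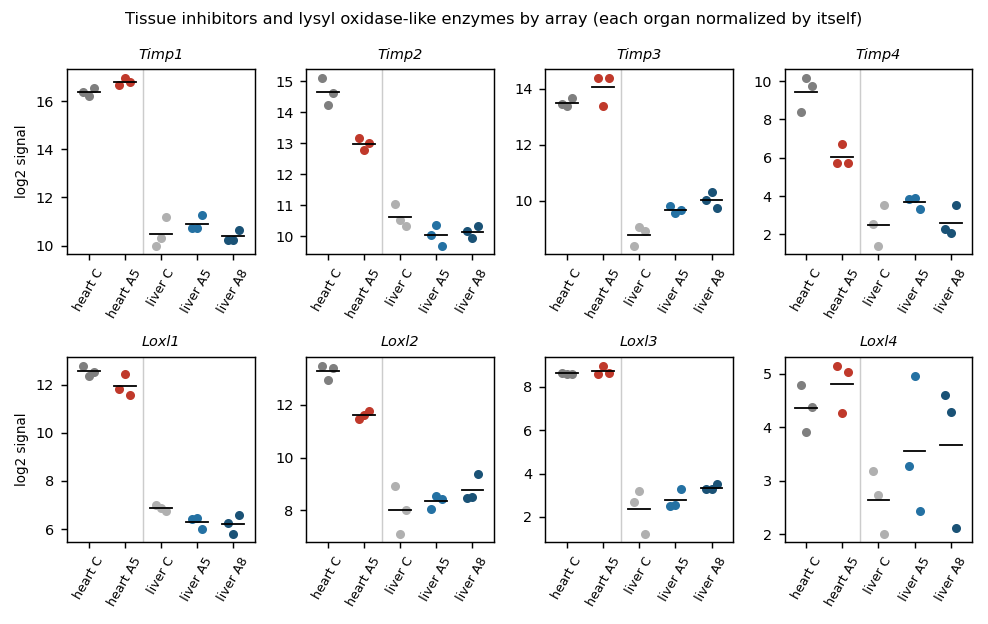
Log2 signal of the 4 TIMPs and 4 lysyl oxidase-like genes on each array (C control, A5 allograft at POD5, A8 allograft at POD8; the line is the group mean), with each organ normalized by itself and each panel on its own scale. Timp4 and Loxl2 show the cardiac allografts below the controls, and Timp3 shows the hepatic allografts above theirs at both times.

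Genes of the surrounding pathway were read from lists of their targets, activators and partners. These lists, and the cell type lists below, were chosen with earlier results of these data known. Of 26 measured substrates of these proteases, 18 fell and 0 rose in the cardiac allografts, with a median difference of -1.13, against 15.1% of all genes lower. They included the fibrillin Fbn2 (-2.31), the collagen-binding proteoglycan lumican (Lum, -2.16), von Willebrand factor (Vwf, -2.04), which endothelium makes, and the laminin Lama2 (-1.89). Among 14 other inhibitors of matrix proteases, 1 rose, the testican Spock1 (3.03), and 4 fell, among them Serpine2 (-1.77), Spock2 (-1.50) and thrombospondin-2 (Thbs2, -1.37).

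The other lists were mixed, and their counts stand against 15.2% of all genes higher and 15.1% lower. Of 12 measured activators of MMP precursors, the urokinase receptor Plaur (1.72), the membrane protease matriptase (St14, 1.63) and urokinase (Plau, 1.29) rose, and 2 fell, among them cathepsin K (Ctsk, -1.70), itself a collagenase. Among 16 cytokines, growth factors and receptors known to act on these genes, 3 rose, Tnf (4.47), Il1b (2.11) and oncostatin M (Osm, 1.98), and 4 fell, among them Tgfb3 (-2.09). Of 13 collagen maturation enzymes 2 rose and 2 fell, with the lysyl hydroxylases Plod3 (0.89) and Plod1 (0.54) higher, and Plod2 (-0.91) and the procollagen C-proteinase Bmp1 (-0.64) lower. Of 13 matrix receptors Sdc4 (1.47) and Itga5 (1.03) rose and the collagen receptors Ddr2 (-1.57) and Itga11 (-1.17) fell, and of 9 ADAM proteases Adam28 (1.86) and Adam17 (0.72), which releases Tnf from cells, rose and Adam12 (-0.79) fell. For the maturation enzymes and the matrix receptors the shares in each direction were close to those of all genes.

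**Figure D3:**
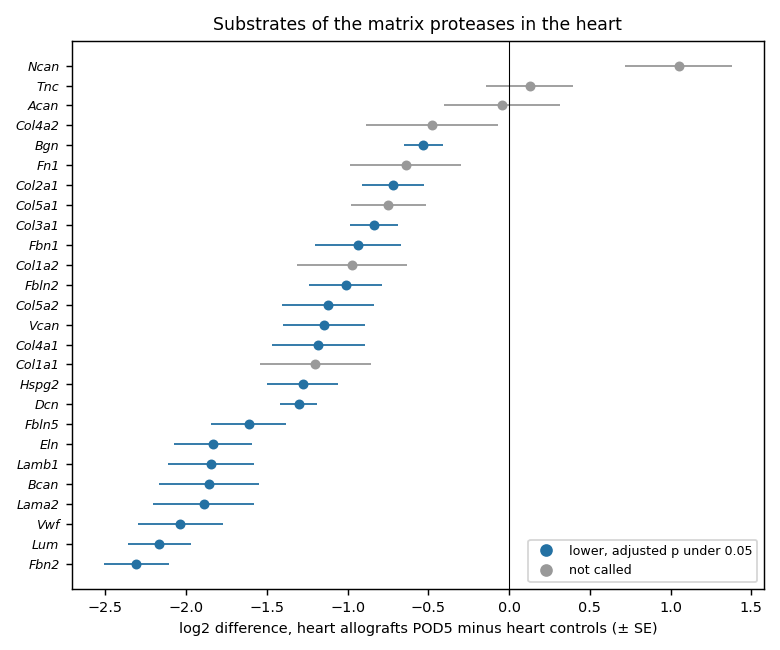
Difference of 26 measured substrates of the matrix proteases between 3 cardiac allografts at POD5 and 3 cardiac controls (log2, bars ± SE from Limma). The 18 coloured genes passed the test and all lie left of 0, down to Fbn2, and Ncan is the gene farthest to the right.

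Markers of several cell types moved with these results in the heart, and their part in them was not tested. Of 12 fibroblast and stellate cell genes 7 fell and 0 rose, with a summed signal of 256696 to 335508 in the allografts against 572412 to 728435 in the controls. Of 8 endothelial genes 6 fell and 1 rose (9612 to 10279 against 21701 to 30486), and of 9 cardiomyocyte genes 4 fell (906383 to 1144807 against 1299519 to 1383956). T cell genes went the other way, with 6 of 7 higher (16006 to 24455 against 685 to 1056), and 7 macrophage genes covered nearly the same range in both groups (40361 to 56335 against 36021 to 56176) with 1 lower. Of 5 bile duct and epithelial genes, 4 fell (16558 to 20778 against 61342 to 95753). The fibroblast list shares Lum, Dcn, Col1a1 and Col3a1, and the endothelial list Vwf, with the substrates above.

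In the hepatic allografts at POD5 the collagenase Mmp13 was the single gene of the 49 that passed the test (2.04%), against 3.62% of all genes (2.67% higher and 0.951% lower). The median of the 49 was -0.11, against -0.07 over all genes, and 17 of them did not overlap between the groups, 7 higher and 10 lower, against 31.9% of all genes (12.2% and 19.6%). Mmp13 was at 5.37, 4.88 and 6.65 in the allografts and at 1.23, 1.18 and 2.32 in the controls, none of which was well above background. It was at least 3.54-fold higher (fitted difference 4.06 ± 0.56, Limma adjusted P = 0.031), all allografts lying far above the controls. Leaving out any 1 of the 6 arrays raised the adjusted P to between 0.052 and 0.13, and with normexp the difference was 0.90 (Limma adjusted P = 0.087).

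Other genes of the chromosome 9 cluster had large but uneven differences in the liver at POD5. Mmp3 was at 7.37, 7.80 and 7.77 in the allografts and 0.94, 5.24 and 5.21 in the controls. Every allograft was above every control, but the first control was far below the other 2. Its array had a 75th percentile of 92.1 before normalization, against 165 and 226 on the other hepatic controls, and the part of this was not tested. The difference of 3.85 ± 1.24 did not pass the test (Limma adjusted P = 0.17). Without that control it was 2.43 (Limma adjusted P = 0.022), and on all arrays Mmp3 passed under the 75th percentile scaling (3.53, Limma adjusted P = 0.047) and with normexp (1.64, Limma adjusted P = 0.024). Mmp7 was at 10.09, 8.30 and 7.67 against 1.96, 4.03 and 8.29, and the third control lay within the allografts (3.93 ± 1.72, Limma adjusted P = 0.28). By the standardized fold change (SFC), the measure of the study's methods, Mmp7 passed (Bonferroni-adjusted P = 1.2e-05). SFC scales a difference of group medians by those of probes of similar mean signal. Its P-value therefore does not measure the spread between samples. Mmp12 was at 4.37, 3.22 and 3.57, with 2 allografts above background, against 1.53, 1.33 and 2.95 in controls that were all dim (1.78, Limma adjusted P = 0.15).

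**Figure D4:**
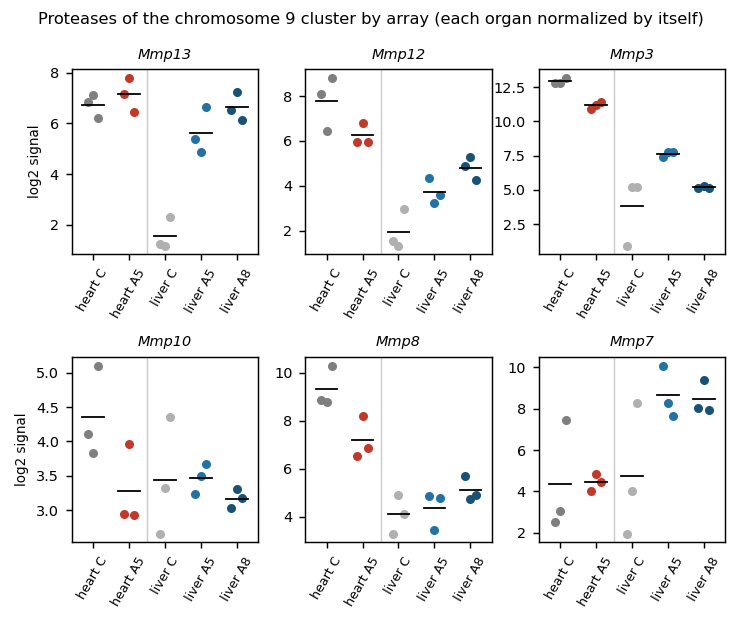
Log2 signal on each array for 6 MMP genes of the chromosome 9 cluster (C control, A5 allograft at POD5, A8 allograft at POD8; the line is the group mean), with each organ normalized by itself and each panel on its own scale. Mmp13 is near the bottom of its scale in the hepatic controls alone, and Mmp3 is lower in the cardiac allografts than in the cardiac controls but higher in the hepatic allografts at POD5 than at POD8.

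At POD8, compared with the same 3 hepatic controls, 2 of the 49 genes rose and 2 fell (8.16%), against 5.38% of all genes, 3.66% higher and 1.72% lower. The median was -0.12, against -0.10 over all genes, and 18 genes did not overlap, 5 higher and 13 lower, against 31.7% of all genes (11.9% and 19.8%). Under the 75th percentile scaling 3 rose and 14 fell, a share of 34.7% against 33.5% of all genes. Mmp13 was at 6.53, 7.24 and 6.15, at least 7.10-fold above the controls (fitted difference 5.07 ± 0.43, Limma adjusted P = 0.0071), and only without the first allograft did it miss the threshold (0.051). Mmp12 was at 4.87, 5.29 and 4.27, at least 2.0-fold above the controls (2.87 ± 0.52, Limma adjusted P = 0.045), a call lost without any of 5 of the 6 arrays. Both proteases were thus above background on all 3 allografts and on none of the controls.

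Mmp7 was at 8.06, 9.41 and 7.92 at POD8, and again only the third control (8.29) lay within the allografts (3.70 ± 1.67, Limma adjusted P = 0.28). Without that control the difference was 5.49 (Limma adjusted P = 0.045), and SFC called Mmp7 on all arrays (Bonferroni-adjusted P = 4.6e-04). Mmp3 at POD8 did not pass the test against the controls. It differed by -0.03 without the first control (Limma adjusted P = 0.88). Without the second or the third control the difference was 2.15 (Limma adjusted P = 0.43 and 0.37).

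The genes that fell at POD8 were Adamts15 and Adamtsl2. Adamts15 was at 4.63, 4.39 and 5.02 in the allografts and 7.11, 6.32 and 6.58 in the controls, a 3.97-fold fall without overlap (-1.99 ± 0.27, Limma adjusted P = 0.024). Adamtsl2 was at 5.11, 3.96 and 3.84 against 6.49, 6.58 and 6.72, a 4.89-fold fall without overlap (-2.29 ± 0.37, Limma adjusted P = 0.034). At POD5, against those same controls, Adamts15 was at 6.63, 4.98 and 5.54, and Adamtsl2 at 5.61, 4.90 and 4.28, and neither passed the test. On the slide that held 2 POD8 allografts and 2 controls, with slide as a block, the differences were 5.68 for Mmp13, 3.65 for Mmp12, -2.21 for Adamts15 and -1.99 for Adamtsl2, with Limma adjusted P of 0.063, 0.064, 0.11 and 0.16.

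None of the inhibitors and oxidases passed the test in the liver. Timp3 was at 9.83, 9.56 and 9.69 at POD5 and 10.02, 10.31 and 9.76 at POD8, against 8.40, 9.08 and 8.91 in the controls. Its allografts were above the controls at both times, with differences of 0.89 ± 0.21 (Limma adjusted P = 0.096) and 1.23 ± 0.24 (adjusted P = 0.054, and 0.022 under the 75th percentile scaling). Timp1 was at 10.75, 10.73 and 11.26 at POD5, 10.25, 10.22 and 10.66 at POD8, and 10.00, 10.31 and 11.20 in the controls, which overlapped both. Timp2 was at 10.02, 10.35 and 9.69 at POD5, 10.18, 9.95 and 10.31 at POD8, and 11.02, 10.51 and 10.32 in the controls, mostly the highest of the 3 groups (differences -0.60 and -0.47, Limma adjusted P = 0.29 for both). Timp4 was above background on 2 POD5 allografts, 1 POD8 allograft and no control, so no fold is given for the liver.

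Loxl1 was at 6.44, 6.45 and 6.01 at POD5, 6.27, 5.82 and 6.58 at POD8, and 7.02, 6.89 and 6.76 in the hepatic controls. The allografts were lower at both times (-0.59 and -0.67), without passing the test (Limma adjusted P = 0.15 and 0.16). Loxl2 was at 8.07, 8.53 and 8.44, then 8.46, 8.51 and 9.37, against 8.94, 7.12 and 8.01, and the controls overlapped both. Loxl3 was above background on 1 hepatic array, and Loxl4 on 2 allografts at each time and no control.

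Mmp2 was at 6.02, 5.81 and 4.24 at POD5 and 5.85, 5.33 and 6.12 at POD8, below all hepatic controls (6.47, 6.74 and 7.61) at both times, without passing the test (-1.59 and -1.18, Limma adjusted P = 0.21 and 0.15). Mmp14 was at 11.55, 11.18 and 11.48 at POD5, just above controls of 11.10, 10.72 and 10.76 (0.54, Limma adjusted P = 0.18). For Mmp8 and Mmp9, the hepatic signals ran from 3.04 to 5.70, and allografts and controls overlapped.

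Compared directly, the hepatic allografts at POD8 and POD5 differed in 0 of the 49 genes by Limma after adjustment, as in 0% of all genes, with 11 of the 49 (22.4%) at an unadjusted P under 0.05 against 13.4% of all genes. With only probes above background tested, 1 gene, Mmp3, passed. Mmp3 was at 5.12, 5.29 and 5.18 at POD8 against 7.37, 7.80 and 7.77 at POD5. This is a difference of -2.45 ± 0.15 without overlap (Limma adjusted P = 0.13). Timp1 was also lower at POD8 on every array (-0.53, Limma adjusted P = 0.37), whereas Mmp13 (1.0, adjusted P = 0.48) and Mmp12 (1.09, adjusted P = 0.35) overlapped between the times.

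Few genes of the pathway lists passed the test in the liver, where 2.67% of all genes were higher and 0.951% lower at POD5, and 3.66% and 1.72% at POD8. At POD5, 2 of 26 substrates fell, Vwf (-1.28) and Fbln2 (-0.86), and 0 rose, and at POD8 none passed the test in either direction. Of the 14 other inhibitors, thrombospondin-1 (Thbs1), which was dim in the controls, rose at both times (fitted 4.14 and 3.76), and Reck, a membrane-bound MMP inhibitor, fell at POD8 (-1.38). The crosslinking transglutaminase Tgm2 rose (1.35 and 1.36) and Bmp1 fell (-1.28 and -1.03) among 13 collagen maturation enzymes.

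The inflammatory cytokines Tnf and Il1b rose at both times in the liver. Of 16 upstream cytokines, growth factors and receptors, Tnf (2.49) and Il1b (1.62) rose at POD5, and at POD8 Pdgfb (3.19), Tnf (3.16), Il1b (2.38) and Ccn2 (1.02), with 0 lower at either time. The leukocyte proteases Adam8 (1.89 and 2.64) and Adam19 (3.03 and 2.35) rose at both times. Of 12 activators 0 passed the test at POD5, and cathepsin S (Ctss, 2.91), a protease of macrophages and other antigen-presenting cells, and urokinase (Plau, 2.02) rose at POD8. One matrix receptor of 13, Itgb3 (0.68), rose at POD8 and 0 at POD5. All these hepatic differences at POD5 and POD8 share the control arrays.

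The summed signal of 7 macrophage genes was higher in the hepatic allografts, as Mmp12 and Mmp13 were, and its part in those results was not tested. It was 45029 to 61297 at POD5 and 62013 to 80866 at POD8, against 11576 to 30826 in the controls, with 0 of the 7 called at POD5 and 1, Marco, higher at POD8 (2.32). T cell genes rose in 4 of 7 at each time (4541 to 7800 and 4084 to 5131, against 233 to 317). The fibroblast and stellate cell list was lower in sum at POD8 (13941 to 21687) than in the controls (25027 to 34568), and overlapped them at POD5 (19561 to 25303), with 1 of 12 genes, Reln, lower at each time. Bile duct genes were at 7884 to 19513 at POD5 against 3801 to 9570, with 0 of 5 called at either time, and 3 of 9 neutrophil genes were lower at POD5 and 0 called at POD8.

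The difference between the organs at POD5 was tested as an interaction, on all 15 arrays normalized together. Of the 49 genes, 13 differed (26.5%), 2 with a larger change in the heart and 11 with a smaller or more negative one, against 13.9% of all genes (6.71% and 7.17%). Under the 75th percentile scaling the split was 8 to 10, a share of 36.7% against 40.7% of all genes. With dim probes removed before testing, 13 of the 43 remaining genes of the 49 differed, against 21.5% of all remaining genes. Of these 43, 42 passed the filter in the cardiac controls and 21 in the hepatic controls, so genes bright in the cardiac controls alone were kept. The median of the 49 was -0.38, against 0.11 over all genes. Mmp3 stood at -1.83 in the heart and 3.98 in the liver, Timp4 at -3.36 and 1.29, and Adamts20 at -2.71 and 1.50. Mmp13 stood at 0.40 in the heart and 4.33 in the liver, and Mmp12 at -1.50 and 1.92. Mmp25 went the other way, with 2.61 in the heart and -0.11 in the liver. The hepatic values of Timp4, Adamts20, Mmp12 and Mmp13 rest on controls that were not above background. Mmp13, Timp4, Adamts20, Mmp25, Adamts9 and Adamts16 passed the test whichever single array was left out and with slide as a random block. The other 7, Mmp3 and Mmp12 among them, did not. In either organ the POD5 allografts and the controls shared no slide, so this block cannot separate slide from graft. For Adamts9, Adamts16 and Adamts20 another probe gave an interaction of the opposite sign that did not pass the test (2.52, 0.50 and 0.01), and Adamts16 missed the threshold under the 75th percentile scaling (-1.13, Limma adjusted P = 0.059). With normexp, Mmp13 (-0.95, Limma adjusted P = 0.11) and Adamts16 (-0.30, Limma adjusted P = 0.075) missed it.

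**Figure D5:**
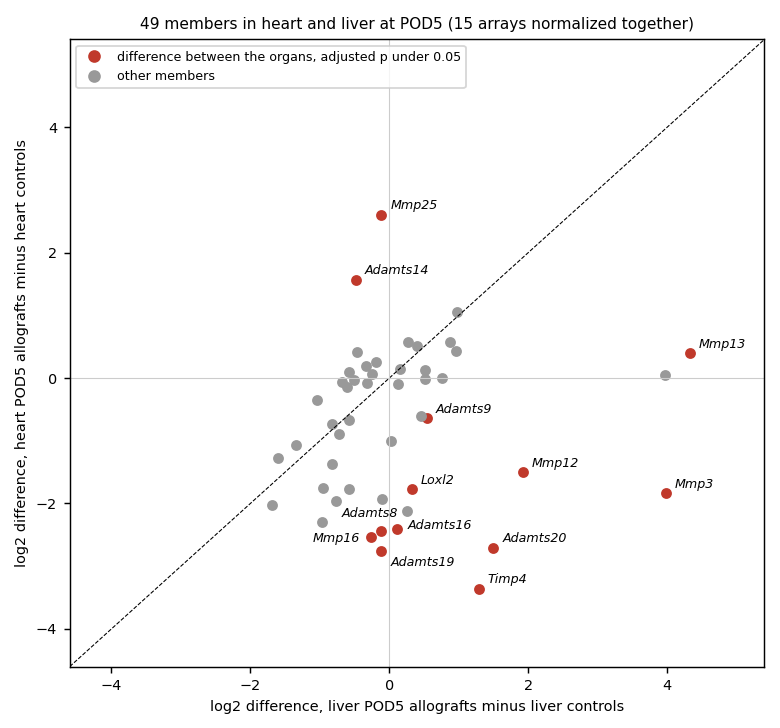
Cardiac POD5 difference (vertical) against hepatic POD5 difference (horizontal) of the 49 genes, in log2 units, with the 15 arrays normalized together and the line of equal change dashed. The 13 labelled genes differed between the organs, among them Mmp13 and Mmp3 far to the right and Mmp25 and Adamts14 above the rest.

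Between the control tissues, 34 of the 49 genes differed (69.4%), 29 higher and 5 lower in the heart, against 47.7% of all genes (24.3% higher and 23.4% lower). The median was 2.37, against -0.10 over all genes. All 4 TIMPs and 3 of the 4 lysyl oxidase-like genes were higher in the heart, as were 9 of 17 ADAMTS proteases and 10 of 21 MMPs. The differences were 7.96 ± 1.35 for Mmp3 and 4.79 ± 0.33 for Timp1 (Limma adjusted P = 0.0056 and 2.3e-04). Without the first hepatic control, on which Mmp3 was dimmest, Mmp3 differed by 6.40. Where the hepatic controls were dim, cardiac controls were at least 22.7-fold higher for Adamts8, 19.2-fold for Timp4, 10.8-fold for Loxl3 and 6.04-fold for Mmp12. The 5 genes higher in the liver were Adamts14 (-2.57), Mmp17 (-2.37), Mmp15 (-1.63), Mmp19 (-1.24) and Adamts7 (-1.09). A second probe of Mmp17 was higher in the heart (1.79, Limma adjusted P = 0.0053), so its direction depends on the probe. With slide as a random block Adamts7 (Limma adjusted P = 0.064), Mmp19 (adjusted P = 0.059) and Mmp14 (adjusted P = 0.066) missed the threshold, leaving 28 genes higher in the heart and 3 lower, and the calls of Adamts7 and Mmp14 were each lost without any of 4 of the 6 arrays. Under the 75th percentile scaling 29 were higher and 12 lower in the heart (83.7%, against 71% of all genes). With dim probes removed before testing, 34 of the 42 remaining genes of the 49 differed, against 65.3% of all remaining genes. All 42 passed this filter in the cardiac controls, and 21 in the hepatic controls. Genes bright in the heart alone were thus kept, and their direction is partly set by the filter. Cardiac and hepatic controls lay on different slides, so that slide and organ cannot be told apart here.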

How the data were processed

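Total RNA extracted with ISOGEN was labelled with Cy3 and hybridized to single-colour Agilent arrays. Per the labels the groups are tissue, operation and day. The authors deposited scanner output (Feature Extraction 10.5.1.1) with a processed intensity per spot on a linear scale, background-subtracted and not normalized between arrays. The study's methods used a natural log and quantile normalization, with a standardized fold change (SFC), Limma and a t test. Here log2 was taken, outlier spots were dropped, replicate spots were averaged per probe, and quantile normalization was run over the arrays of each organ (over all 15 for comparisons between organs). A probe was above background where at least 0.5 of its spots carried the software's mark. Limma 3.58.1 (lmFit, eBayes; R 4.3.3 with the data.table package, version 1.17.8) was run over all probes with Benjamini-Hochberg adjustment, and the genes were read on their brightest probe.

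Of 41174 probes, 26690 (64.8%) were named by transcript accession through RefSeq, and the rest kept the name in the files. For a group with no array above background, a fold is a lower bound: the mean of the bright group is set against what each dim array could have shown at most, which is its lowest signal above background or, where higher, the signal of the probe itself, averaged over those arrays. The genes and lists were chosen with earlier results of these data known. Named with values were all TIMPs and lysyl oxidases, 8 MMPs (2, 3, 7, 8, 9, 12, 13 and 14), per allograft comparison up to 12 higher and 8 lower called genes by size, and up to 6 in the other comparisons. The other members of the lists are given by counts. Gene lists for B and plasma cells (0 of 6 called in each allograft comparison), cartilage and bone (1 of 4 lower in the heart, 0 in the liver), proliferation (3 of 5 higher in the heart, 3 and 2 in the liver) and hepatocytes in the liver (0 of 6) were read too. SFC, with bins of 1000 probes and a standard normal reference, and the methods' t-test were run as alternatives, beside other scalings, filters, blocks for slide or replicate number, and each array left out in turn. The number of arrays limits the precision. The limma step was tested on simulated data.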

Additional observations from a re-analysis of the deposited data

Results flagged for a closer look

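In 13 genes the cardiac difference at POD5 differed from the hepatic one by the interaction test (Limma adjusted P under 0.05, 3 arrays a group). The interaction, heart minus liver on the log2 scale, was -5.81 ± 1.42 (SE) for Mmp3, -4.65 ± 0.85 for Timp4, -4.21 ± 0.84 for Adamts20, -3.93 ± 0.77 for Mmp13 and -3.43 ± 0.92 for Mmp12. It was -2.65 for Adamts19, -2.52 for Adamts16, -2.33 for Adamts8, -2.26 for Mmp16, -2.09 for Loxl2 and -1.18 for Adamts9. The positive values were 2.72 for Mmp25 and 2.06 for Adamts14. For Adamts19, Adamts16, Adamts8 and Mmp16 no hepatic array was well above background, and the hepatic differences were -0.11, 0.11, -0.11 and -0.27. For Mmp3 the first hepatic control decides part of the size, and without it the interaction was -4.26 (adjusted P = 3.9e-04).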

How the results depend on the processing

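The count of genes called in the heart (23) was 0 with Bonferroni adjustment of Limma, SFC or the methods' t-test and 1 with SFC and Benjamini-Hochberg adjustment, and 16 to 28 with 1 array left out (16 without the first control). Over all genes the Bonferroni settings called 0.23%, 0.612% and 0.0466%, in that order. SFC with Benjamini-Hochberg adjustment called 2.48%, and leaving out 1 array gave 17.3% to 39.7%. In the liver at POD5 (1 gene) it was 2 with the 75th percentile scaling, normexp on median signals, only probes above background, or SFC with Bonferroni adjustment (Mmp13 among them except with normexp), 3 with SFC and Benjamini-Hochberg adjustment, 8 with 1 fit of 5 groups, 0 with Bonferroni-adjusted Limma or with either form of the methods' t-test, and 0 to 1 with 1 array left out. The share of all genes was 4.17% with that scaling, 4.59% with normexp and 10.1% with only probes above background. With SFC it was 0.96% after Bonferroni and 3.17% after Benjamini-Hochberg adjustment. It was 15.1% with 1 fit of 5 groups, and 0.0372% to 2.76% with 1 array left out. Bonferroni-adjusted Limma called 0.0186% of all genes. The methods' t-test called 0.0155% after Bonferroni and 0.576% after Benjamini-Hochberg adjustment. At POD8 (4 genes) the count was 7 with only probes above background, 17 under 75th percentile scaling, 10 with 1 fit of 5 groups, 0 with slide as a fixed block, 0 with Bonferroni-adjusted Limma, 2 and 0 with SFC and the methods' t-test after Bonferroni adjustment, 1 with the methods' t-test after Benjamini-Hochberg adjustment, and 1 to 7 with 1 array left out. All genes gave 11.4% with only probes above background, 33.5% under that scaling, 11.6% with 1 fit of 5 groups and 0% with slide as a fixed block. They gave 0.808% to 6.85% with 1 array left out. After Bonferroni adjustment Limma called 0.108% of all genes, SFC 1.04% and the methods' t-test 0.0403%. The t-test called 2.05% after Benjamini-Hochberg adjustment. Between POD8 and POD5 (0 genes) the count was 1 with only probes above background, where 0.0317% of all genes passed, and 0 to 0 with 1 array left out. For the interaction (13 genes) it was 6 with slide as a random block, 0 with Bonferroni adjustment and 6 to 15 with 1 array left out. The same settings called 6.78%, 0.199% and 7.24% to 17.9% of all genes. Between the controls (34 genes) the count was 1 with Bonferroni adjustment and 32 to 36 with 1 array left out, against 2.95% and 36.6% to 51.4% of all genes. The cause of these shifts was not tested.

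The labels do not say whether replicate numbers pair the samples, and the main tests used no pairing. Deviations of same-numbered arrays correlated between -0.07 and 0.05 in the heart, -0.14 and -0.10 in the liver at POD5, and 0.00 and 0.05 at POD8. With the replicate number as a block the counts were 19 in the heart, 0 and 0 in the liver at POD5 and POD8, 0 between the days and 13 for the interaction. The shares of all genes were 19.6%, 0%, 0%, 0% and 11.1% in that order.

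Of 2421 recomputed values for single genes, 2229 kept direction and call, 149 lost a call, 30 gained one and 13 reversed. Reversed were Adamts3 in the heart under the 75th percentile scaling (0.61) and differences on a gene's other probe: in the heart Adamts16 (0.94), Adamts20 (0.77), Adamts9 (1.61) and Mmp16 (0.84), in the interaction Adamts16 (0.50), Adamts20 (0.012), Adamts9 (2.52) and Mmp16 (0.74), and between the controls Adamts16 (-1.68), Adamts20 (-0.91), Adamts9 (-0.16) and Mmp17 (1.79). Calls in the heart lost without a single array, outside Adamts4, were those of Adamtsl1 (5 of 6 arrays), Adamts7 and Mmp11 (4), Adamts8, Adamts19 and Adamts9 (3) and Adamts3 (2), and at hepatic POD8 Adamtsl2 (5) and Adamts15 (3). The normexp correction was set on mean signals and was run on median signals, a form chosen after seeing the data. With 3 arrays a group, small differences could not be shown, and dim probes carry only bounds.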
